A study of Mus musculus with 8 samples.

Results

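Keratins are the intermediate filament proteins of epithelial cells. A filament is built from heteropolymers in which a type I keratin pairs with a type II keratin, so the proteins of both classes are needed together, and the finished filaments are anchored to desmosomes and hemidesmosomes by linker proteins of the plakin family. Krt8 with Krt18 is the pair of simple epithelia and the earliest to appear in the mouse embryo, where it marks the trophectoderm, while Krt17 and Krt16 belong to the epidermis and its appendages and rise in injured skin.

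The 8 keratin genes Krt7, Krt8, Krt80, Krt18, Krt19, Krt17, Krt42 and Krt20 were taken by name from the 50600 gene rows of the deposited expression table, and all 8 were found. The table holds 55 keratin rows in all, 27 of type II and 28 of type I, and 14 of them were above 0 in at least 1 of the 8 libraries. RNA was sequenced from OG2 transgenic mouse embryonic stem cells, a line of mixed 129SVJ, C57B6 and CBA background, that carry a c-Jun_TetOn transgene and were at passage 12. They were grown without feeders in serum-containing medium with LIF, the MEK inhibitor PD0325901 and the GSK3 inhibitor Chir99021. Every library, controls included, came from cells given 2 µg/ml doxycycline, which switches on the JUN transgene, and no uninduced cells are among these libraries.

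The 4 groups held 2 libraries each and differed by their labels in what was added with doxycycline for 6 h: the solvent DMSO, PFI-3 (a ligand of the bromodomains of the SMARCA ATPases and PBRM1 of BAF-type chromatin remodelling complexes), BI-9564 (an inhibitor of the bromodomains of BRD9 and BRD7), or both compounds, called P+B. The labels give no dose for either compound, so a lower amount of each in P+B than in the single treatments cannot be told from these files. Nor do the labels say whether replicates 1 and 2 were separate cultures, so the p-values measure only the spread between these libraries. In bulk RNA, fewer cells with a transcript and less transcript per cell cannot be told apart.

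The values were TPM, an abundance relative to the whole library, written as whole numbers, which are scaled to gene length and can be compared between genes, but which keep no record of sequencing depth. Library sums lay between 991574 and 991897, and 10285 to 10451 genes had a value of at least 5. Pou5f1, the central pluripotency factor, lay between 1104 and 1333 in all 8 libraries, and each of the 10 stem cell markers had a mean of at least 5. Markers of other lineages were mixed. The 10 mesenchyme and fibroblast markers summed to between 2 and 9. Of 10 markers each, 5 of primitive endoderm, 4 of surface ectoderm and epidermis and 0 of trophectoderm were at 0 throughout. Lrp2 of the primitive endoderm lay at 13 to 35, Sfn of the epidermis at 235 to 832 and Tead4 of the trophectoderm at 22 to 77. Jun itself read 1970 and 2877 in DMSO, 1570 and 2227 in PFI-3, 2071 and 3011 in BI-9564, and 1569 and 2159 in P+B, the higher value in each group being replicate 2. Within each replicate number, Jun was lower in PFI-3 and in P+B than in DMSO, and higher in BI-9564.

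The type II genes lie on chromosome 15 and the type I genes other than Krt18 on chromosome 11, by the GENCODE M21 annotation of GRCm38 (mm10), the build named in the submitters' processing notes. Krt8 is at chr15:101996698-102004482 on the minus strand and Krt18 at chr15:102028180-102032027 on the plus strand. They are 23698 bp apart, with their 5′ ends facing each other, and Krt18 is the only type I gene of the 8 in the type II cluster. Krt80 (chr15:101347444-101370162, minus strand) and Krt7 (chr15:101411043-101430313, plus strand) are neighbours at the other end of that cluster. On chromosome 11, Krt17 (chr11:100256217-100261029) and Krt42 (chr11:100262882-100269871) are separated by 1853 bp, Krt16 lies 7315 bp beyond Krt17, and Krt19 (chr11:100140810-100148665) and Krt20 (chr11:99428403-99438150) are further away, all on the minus strand.

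RefSeq promoter windows on GRCm38.p6, which run from 250 bases before to 50 bases after the start site, were at hand for Krt7, Krt8, Krt18, Krt42 and Krt20, and none was matched to Krt17, Krt19 or Krt80. The 270 bases that end 20 bases after the start of Krt8 (chr15:102004323-102004592, minus strand) and of Krt18 (chr15:102027966-102028235, plus strand) are shown because these adjacent genes carried most of the keratin RNA and had the clearest differences between treatments. Capitals mark the overlapping TATAAA and TTTATA matches at the RefSeq start of Krt8, while the Krt18 window holds no match to the motifs searched. The GENCODE 5′ ends of Krt8 (102004482) and Krt18 (102028180) lie before these RefSeq starts and inside the stretches shown. Part of each stretch before the start is therefore within the gene as placed by GENCODE.
Krt8: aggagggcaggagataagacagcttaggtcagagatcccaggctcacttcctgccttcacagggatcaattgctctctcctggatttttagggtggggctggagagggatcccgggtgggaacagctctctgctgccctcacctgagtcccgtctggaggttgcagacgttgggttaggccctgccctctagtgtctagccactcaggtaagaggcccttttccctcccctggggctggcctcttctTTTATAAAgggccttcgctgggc
Krt18: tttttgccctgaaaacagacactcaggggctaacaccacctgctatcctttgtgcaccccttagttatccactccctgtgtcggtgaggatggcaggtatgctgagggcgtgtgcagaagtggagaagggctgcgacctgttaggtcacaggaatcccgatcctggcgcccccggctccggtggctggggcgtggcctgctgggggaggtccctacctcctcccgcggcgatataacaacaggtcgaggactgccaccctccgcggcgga
The AP-1 heptamer bound by JUN (TGAGTCA or TGACTCA, which are each other's reverse complement) was searched on both strands and found in none of these 5 keratin windows and in 5.2% of all 32851 windows. The cAMP response element TGACGTCA was likewise in none of the 5 and in 1.79% of all windows. GC boxes (GGGCGG or CCGCCC) were found in the Krt7 window and in 35.7% of all, and a TATA match (TATAAA or TTTATA) in the windows of Krt8, Krt42 and Krt20 and in 13.6% of all. These TATA matches, sought at any position, began at base −29 from the start in Krt20, −3 and −1 in Krt8, and 20 in Krt42.

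Krt8 was the most abundant keratin in each library. Its value was 163 and 114 in DMSO, 101 and 81 in PFI-3, 97 and 69 in BI-9564, and 53 and 30 in P+B (replicates 1 and 2 in this order here and throughout). All 6 libraries with a compound were below both DMSO libraries, and both P+B libraries were below every other library. The group means were 138.5 ± 34.7, 91.0 ± 14.1, 83.0 ± 19.8 and 41.5 ± 16.3 (SD, n = 2).

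Krt18, the type I partner of Krt8, followed the same order. It read 103 and 89 in DMSO, 66 and 51 in PFI-3, 58 and 38 in BI-9564, and 27 and 20 in P+B. Again every library with a compound was below both DMSO libraries and both P+B libraries were below all others. The means were 96.0 ± 9.90, 58.5 ± 10.6, 48.0 ± 14.1 and 23.5 ± 4.95 (SD, n = 2). PFI-3 and BI-9564 overlapped for both Krt8 and Krt18.

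Krt19, a type I keratin of simple epithelia that lacks most of the tail domain, had a different order of treatments. It read 27 and 18 in DMSO, 9 and 9 in PFI-3, 19 and 21 in BI-9564, and 11 and 4 in P+B. Both groups that received PFI-3 were below DMSO and below BI-9564 in every library, while BI-9564 fell inside the DMSO range. The means were 22.5 ± 6.36 in DMSO, 9.0 ± 0 in PFI-3, 20 ± 1.41 in BI-9564 and 7.5 ± 4.95 in P+B (SD, n = 2).

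Krt42, a type I keratin encoded next to Krt17, was split by replicate rather than by treatment. Its value was 45 and 14 in DMSO, 36 and 12 in PFI-3, 24 and 6 in BI-9564, and 28 and 6 in P+B. Replicate 1 was 3.21, 3.0, 4.0 and 4.67 times replicate 2 in these groups, and no treatment was separated from DMSO. Taken within a replicate number, all 3 treatments were below DMSO both times.

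Krt17 and Krt80 were low, with means over the 8 libraries of 4.38 and 2.63. Krt17 read 11 and 5 in DMSO, 6 and 4 in PFI-3, 5 and 1 in BI-9564, and 2 and 1 in P+B, so that only P+B was below both DMSO libraries. Krt80, a type II keratin of epithelia, read 4 and 5 in DMSO, 3 and 4 in PFI-3, 2 and 3 in BI-9564, and was listed at 0 in both P+B libraries. At values this small, a step of 1 in the whole-number scale is a large share of the value. Krt7, the type II keratin of glandular and ductal epithelia, and Krt20, a type I keratin of intestinal epithelium, were listed at 0 in all 8 libraries.

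**Figure D1:**
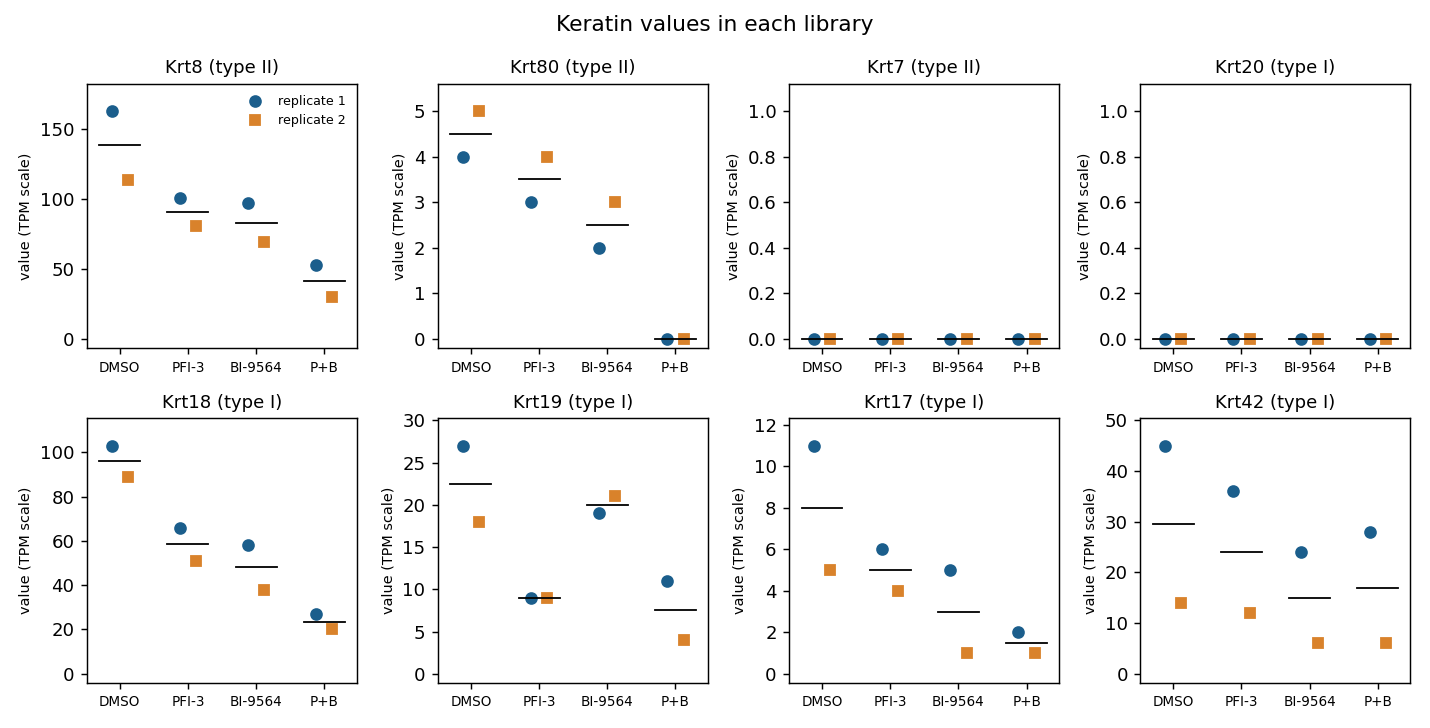
Value of each of the 8 keratin genes (y axis, TPM scale, linear, own range per gene) in the 2 libraries of each treatment (x axis), with circles for replicate 1, squares for replicate 2 and a line at the mean. Krt8 and Krt18 are lowest in P+B at 30 to 53 and 20 to 27, Krt19 is low in both groups with PFI-3, and Krt42 is higher in replicate 1 of every treatment.

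In DMSO the order of levels per transcript length was Krt8, Krt18, Krt42, Krt19, Krt17 and Krt80. Krt8 and Krt18 did not overlap (114 and 163 against 89 and 103), whereas Krt42 overlapped Krt19 and Krt17 touched Krt80 at 5. In P+B, Krt42 at 28 exceeded Krt18 in replicate 1 and stood well below it in replicate 2. Krt8 was above Krt18 in each library, by a ratio of 1.28 to 1.96, and the lowest and the highest ratio were those of DMSO replicate 2 and P+B replicate 1. Krt8 and Krt18 together made up between 66.1% and 82.9% of the summed value of the 8 genes.

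The summed value of all 55 keratins was 399 and 270 in DMSO, 238 and 167 in PFI-3, 220 and 144 in BI-9564, and 127 and 62 in P+B. Every treated library lay below both DMSO libraries, and both P+B libraries below all others. The type II sum was 176 and 130 in DMSO and 53 and 30 in P+B, while the type I sum was 223 and 140 in DMSO and 74 and 32 in P+B. Both classes were thus lower in P+B, and the ratio of the type II to the type I sum ranged over the 8 libraries from 0.716 to 1.06, with no treatment standing apart from the others.

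**Figure D2:**
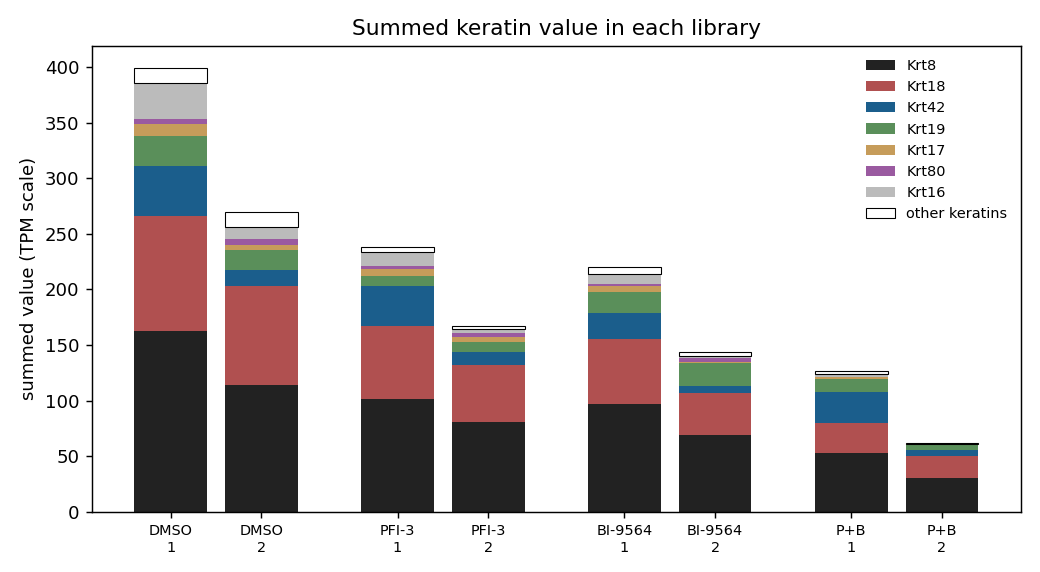
Summed keratin value (y axis, TPM scale, from 0) in each of the 8 libraries (x axis), stacked by gene, with Krt16 in grey and the remaining keratins in white. The bars fall from 399 and 270 in DMSO to 127 and 62 in P+B, and Krt8 and Krt18 form the lower 2 segments of each.

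The combined treatment was compared with DMSO, both in cells under JUN induction. Whether the bromodomains were blocked in these cells was not tested. Krt18 fell 3.99-fold (log2 fold change of value + 1, −2.0 ± 0.23 SE, limma adjusted p = 0.00349) and Krt8 fell 3.36-fold (−1.75 ± 0.29 SE, adjusted p = 0.0155). Krt19 stood 2.98-fold lower and did not pass the test (−1.57 ± 0.38 SE, adjusted p = 0.0557), nor did Krt42 (−0.88 ± 0.88 SE, adjusted p = 0.602). So 2 of the 4 keratins with a mean of at least 5 passed, where a call needs an adjusted p under 0.05 and a change of at least 1.5-fold, against 2.72% of all 10222 genes tested that were called lower. The median change of the 4 was −1.66, and that of all genes tested 0.063. The keratins were chosen with earlier results of these data known, so these shares are descriptions.

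Same-numbered libraries deviated together weakly over all genes tested (r from 0.143 to 0.236), and the labels do not state a pairing. When the replicate number was added to the model as a block, the fit called all 4 tested keratins lower, where 4.1% of genes were called lower. The adjusted p was then 0.000252 for Krt18, 0.000375 for Krt8, 0.0239 for Krt19 and 0.0216 for Krt42. With a mean of at least 1 as the minimum, Krt80 and Krt17 entered the test, and 3 of 6 keratins were called lower (1.89% of 13101 genes): Krt18, Krt8 and Krt80, the last with a change of −2.45 ± 0.36 SE and an adjusted p of 0.0202. Block and lower minimum together, a setting chosen after seeing the data, called all 6 (3.21% of genes), Krt17 among them at −1.79 and an adjusted p of 0.0379 against 0.154 without the block. Since Krt80 was at 0 in both P+B libraries, the size of its fitted change depends on the added 1 and no fold is given.

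Leaving out a library ended some of the calls made without the block. Without DMSO replicate 1, the highest library for both genes, the adjusted p was 0.0572 for Krt18 and 0.118 for Krt8. Without P+B replicate 2, the lowest for both, it was 0.0514 and 0.112, and without DMSO replicate 2 the call of Krt8 was lost at 0.0667 while that of Krt18 was kept at 0.0437. Both P+B libraries were below both DMSO libraries for 3 of the 4 tested keratins, Krt8, Krt18 and Krt19, and for 18.9% of the genes tested. The same held for Krt80 and Krt17, which were too low for that test. Over all alternatives tried, the adjusted p lay between 0.000252 and 0.1 for Krt18 and between 0.000375 and 0.153 for Krt8.

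**Figure D3:**
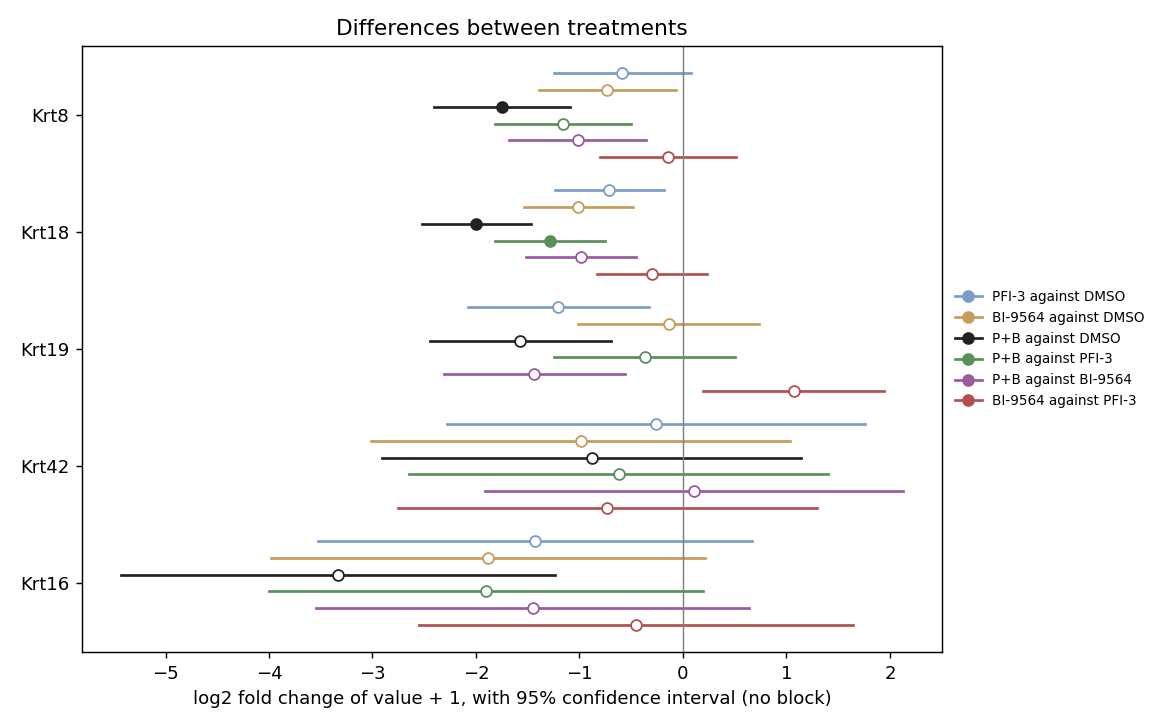
Log2 fold change of value + 1 with its 95% confidence interval (x axis) for the 4 tested keratins and Krt16 (y axis) in 6 comparisons, from the limma fit without a block; filled points were called. The filled points are Krt8 and Krt18 for P+B against DMSO and Krt18 for P+B against PFI-3, and the intervals of Krt42 and Krt16 are the widest.

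PFI-3 alone was compared with DMSO. No keratin was called, with or without the block, and neither was any other gene called lower (0% in both fits), although 694 genes had an unadjusted p under 0.05 and Krt19 and Krt18 were among them. Krt19 differed most (−1.21 ± 0.38 SE, adjusted p = 0.594), followed by Krt18 (−0.71 ± 0.23 SE, adjusted p = 0.594) and Krt8 (−0.59 ± 0.29 SE, adjusted p = 0.772). The libraries of these 3 genes did not overlap between PFI-3 and DMSO, a split in that direction shared by 12.8% of the genes tested. The 4 keratins had a median change of −0.65, against 0.018 for all genes.

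BI-9564 alone was compared with DMSO in the same way. None of the 4 was called without the block, where 0.0783% of genes were called lower. Under the block Krt18, Krt8 and Krt42 were called lower, 3 of 4, against 1.04% of genes. Krt18 was 2.02-fold lower (−1.01 ± 0.23 SE), with an adjusted p of 0.131 without and 0.0164 with the block. Krt8 was 1.66-fold lower (−0.73 ± 0.29 SE), with 0.299 and 0.0318, and Krt42 1.99-fold lower (−0.99 ± 0.88 SE), with 0.645 and 0.0389. Without the block, leaving out a library moved the change of Krt42 between −1.91 and −0.07. Krt19 differed by −0.14 ± 0.38 SE, with a 95% interval from −1.01 to 0.74. Of the 4, Krt8 and Krt18 were below both DMSO libraries in both BI-9564 libraries, as were 18.3% of the genes tested, and so was Krt80, which was too low for the test.

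P+B was then compared with each compound alone. Against PFI-3, Krt18 was 2.43-fold lower and was the only keratin called without the block (−1.28 ± 0.23 SE, adjusted p = 0.0411, with 1.05% of genes called lower), and this call was lost when any 1 of the 8 libraries was left out (adjusted p from 0.0512 to 0.257). Krt8 was 2.24-fold lower (−1.16 ± 0.29 SE, adjusted p = 0.104). With the block both Krt18 and Krt8 were called (adjusted p of 0.00321 and 0.00386, with 2.4% of genes called lower), while Krt19 differed by −0.37 ± 0.38 SE.

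Against BI-9564, Krt8 was 2.02-fold lower (−1.02 ± 0.29 SE) and Krt18 1.98-fold lower (−0.98 ± 0.23 SE). Neither passed without the block (adjusted p of 0.381 and 0.238, with 0.196% of genes called lower) and both did with it (0.0126 and 0.0132, with 0.724% of genes called lower). Krt19 was 2.71-fold lower (−1.44 ± 0.38 SE) and missed the threshold in both fits (adjusted p of 0.341 and 0.127). Krt42 differed by 0.11 ± 0.88 SE, with P+B and BI-9564 at 28 against 24 in replicate 1 and at 6 against 6 in replicate 2.

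The direct comparison of BI-9564 with PFI-3 called no tested keratin in either fit, where 0.108% of genes were called in either direction without and 1.48% with the block. Krt19 was 2.1-fold higher in BI-9564 (1.07 ± 0.38 SE, 95% interval 0.19 to 1.94, adjusted p = 0.284, 0.132 with the block). For Krt8 and Krt18 the differences were −0.14 and −0.30, with 95% intervals without the block from −0.80 to 0.52 and from −0.83 to 0.23. With the block they ran from −0.42 to 0.13 and from −0.57 to −0.03, the latter with an adjusted p of 0.207. Krt42 differed by −0.73, with an interval from −2.75 to 1.29 without the block. With the block its interval ran from −1.15 to −0.31 (adjusted p = 0.0834). No call therefore separated the compounds for these genes, and the data do not show that they act alike.

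The change in P+B was also set against the sum of the changes with each compound on the log2 scale. Without the block no keratin and no other gene was called (0% in either direction), while 333 genes had an unadjusted p under 0.05. The departure from the sum was −0.43 ± 0.41 SE for Krt8, −0.27 ± 0.33 SE for Krt18, −0.23 ± 0.54 SE for Krt19 and 0.37 ± 1.25 SE for Krt42. Each interval spanned 0 without the block, and for Krt8 it ran from −1.36 to 0.50. With the block the interval for Krt8 ran from −0.82 to −0.04 and its adjusted p was 0.82.

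Within a replicate number the same differences could be read without averaging. Krt8 in P+B was 3.08-fold below DMSO in replicate 1 and 3.8-fold below it in replicate 2, and Krt18 was 3.81-fold and 4.45-fold below. Krt19 in PFI-3 was 3.0-fold and 2.0-fold below DMSO, but in BI-9564 it was lower in replicate 1 (19 against 27) and higher in replicate 2 (21 against 18). Krt42 in P+B was 1.61-fold and 2.33-fold below DMSO. The order DMSO, PFI-3, BI-9564 and P+B, from high to low, held for Krt8 and Krt18 in both replicates.

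**Figure D4:**
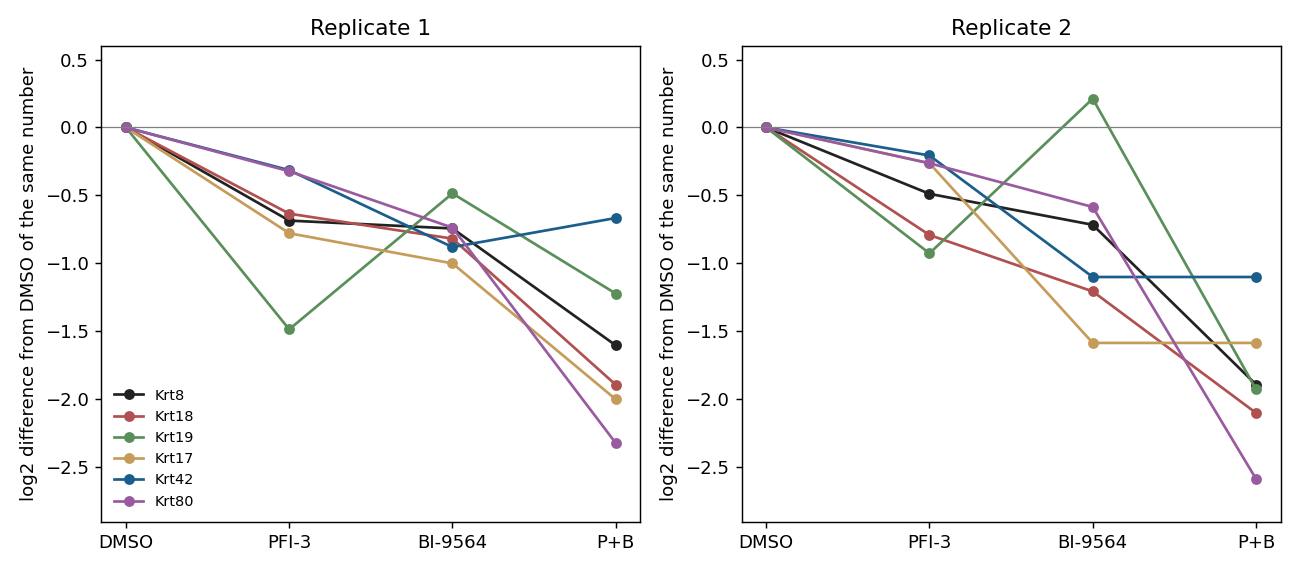
Log2 difference of value + 1 from the DMSO library of the same replicate number (y axis) for 6 keratins in each treatment (x axis), with replicate 1 on the left, replicate 2 on the right and lines joining the values of a gene. Krt8 and Krt18 step down from PFI-3 to BI-9564 to P+B in both panels, and Krt19 is lowest in PFI-3 in replicate 1 and in P+B in replicate 2.

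The replicate number itself went with large differences in some keratins, and this test was added after seeing the data. In the fit with the block, Krt42 was 3.37-fold lower in replicate 2 than in replicate 1 (−1.75 ± 0.13 SE, adjusted p = 0.00144), the only member called lower in a comparison where 0.763% of genes were. Krt8 and Krt18 were lower in replicate 2 of all 4 groups, with changes of −0.53 and −0.40 that stayed under 1.5-fold (adjusted p of 0.019 and 0.0442). Krt80 went the other way, with replicate 2 higher by 1 in DMSO, PFI-3 and BI-9564. Krt19 was equal in the replicates of PFI-3 (9 and 9) and higher in replicate 2 of BI-9564 (19 and 21). Jun was 1.43-fold higher in replicate 2 (0.51 ± 0.03 SE, adjusted p = 0.000382), and Nanog, a pluripotency factor, was higher in replicate 1 of each group. Between treatments, Jun differed from DMSO by −0.37 ± 0.04 SE in P+B, under 1.5-fold (adjusted p = 0.00156, and 0.437 without the block). In PFI-3 it differed by −0.35 ± 0.04 SE (adjusted p = 0.116) and in BI-9564 by 0.07 ± 0.04 SE (adjusted p = 0.339). What part these differences have in the keratin values was not tested.

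Of the 47 keratins outside the list, 39 were listed at 0 in all libraries and Krt16 was the only other keratin with a mean of at least 5. Krt16, the epidermal type I keratin that adjoins Krt17, read 33 and 11 in DMSO, 13 and 3 in PFI-3, 9 and 2 in BI-9564, and 3 and 0 in P+B. It combined the fall seen in Krt8 and Krt18 with the replicate split of Krt42. Its change in P+B was −3.34 ± 0.91 SE (adjusted p = 0.0784, and 0.000759 with the block), and from replicate 1 to replicate 2 −1.76 ± 0.20 SE (adjusted p = 0.00566).

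The type II keratins Krt5 and Krt6a, which pair with type I partners in basal and in injured epidermis, were low. Krt5 read 5 and 7 in DMSO, 3 and 1 in both PFI-3 and BI-9564, and was listed at 0 in P+B. Krt6a read 4 and 4 in DMSO, 2 and 1 in BI-9564, and was listed at 0 in both PFI-3 and P+B. Both were called lower in P+B at a mean of at least 1 (adjusted p of 0.0402 and 0.0444), and Krt10, of suprabasal epidermis, lay between 0 and 2. Krt14, the usual partner of Krt5, was at 1 in DMSO replicate 1 and at 0 in the other libraries.

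Closely related sequences limit how far reads can be placed. Of the 31-base stretches in Krt8 transcripts of GENCODE M21, 32.2% also occurred in the processed pseudogene Krt8-ps, which was listed at 0 in every library. Krt18 shared 9.31% with the processed pseudogene Gm5200, which was not analysed here. Krt16 shared 32.2% with the pseudogene Gm11597, listed at 0, and 19.7% with Krt14, whereas Krt42 shared 3.23% with Krt14 and 2.77% with Krt17. Krt6a shared 45.9% with Krt6b. Krt19 shared 0.439% of its stretches with all other genes and Krt20 none. The shares found in any other gene were highest for Krt6a (62.0%), Krt16 (51.9%) and Krt8 (36.0%), and how the reads in question were divided was not tested.

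Over the 8 libraries the log2 values of Krt8 and Krt18 had a Pearson correlation of 0.976, and 0.903 after the group means were removed. Krt42 and Krt16 had 0.82 over the libraries and 0.995 within groups, where only the difference between replicates is left. Krt80 was related to Krt8 by 0.837 over the libraries and by −0.67 within groups. These are descriptions over 8 libraries that share their treatments and replicate numbers.

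The 5 genes outside the keratin family whose log2 values were most like the mean of Krt8 and Krt18, within the tested set, were Myof, Rusc2, Plec, Esd and Ptrf, with correlations of 0.993, 0.992, 0.992, 0.987 and 0.986 over 8 libraries. Plec encodes plectin, the plakin that ties keratin filaments to hemidesmosomes, and read 103 and 96 in DMSO, 85 and 82 in PFI-3, 85 and 73 in BI-9564, and 60 and 51 in P+B. Myof, which encodes the membrane protein myoferlin, read 64 and 50 in DMSO and 23 and 16 in P+B. Ptrf, the caveolar coat protein cavin-1, read 152 and 139 in DMSO and 62 and 44 in P+B. Esd, the enzyme esterase D, was at 225 and 212 against 143 and 104, and Rusc2 at 47 and 43 against 24 and 17. Since the genes were picked for their likeness to Krt8 and Krt18, their lower values in P+B follow from the choice.

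A list of 23 desmosome and plakin linker genes was examined, not all of which attach keratin filaments. Like the keratins and the lists below, it was chosen with earlier results of these data known, so its share of calls is a description. Of these 23, 22 were in the table and 13 had a mean of at least 5. In P+B all 13 were lower than in DMSO, as were 41.7% of all genes tested, and 6 were called lower, against 2.72% of all genes, with a median change of −0.61 against 0.063 for all genes. The 6 were Dsp (−1.74 ± 0.19 SE), Pkp3 (−1.43 ± 0.20), Itga6 (−1.36 ± 0.11), Plec (−0.83 ± 0.12), Macf1 (−0.76 ± 0.13) and Dst (−0.61 ± 0.10), with adjusted p-values from 0.001 to 0.0179. Dsp encodes desmoplakin, which binds Krt8 and Krt18 filaments at the desmosome, and its value was 48 and 56 in DMSO, 31 and 39 in PFI-3, 27 and 32 in BI-9564, and 13 and 17 in P+B. Every library with a compound was below both DMSO libraries, and P+B was below all others. Pkp3, a desmosomal plaque protein, read 50 and 40 in DMSO and 17 and 15 in P+B. Itga6, an integrin subunit that is not limited to hemidesmosomes, read 201 and 177 in DMSO and 76 and 70 in P+B.

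The other 7 tested genes were not called without the block. Perp, a desmosomal membrane protein, read 82 and 59 in DMSO and 49 and 27 in P+B (−0.92 ± 0.29 SE, adjusted p = 0.111, and 0.0111 with the block, where it joined the 6). With the block 7 of the 13 were thus called lower, against 4.1% of all genes. Pkp2 read 35 and 44 in DMSO and 31 and 46 in P+B, and Jup, which encodes plakoglobin, read 120 and 94 against 95 and 76 (−0.32 ± 0.19 SE, adjusted p = 0.37). Itgb4, the integrin subunit of hemidesmosomes, was low, at 9 and 5 in DMSO and 5 and 8 in P+B (−0.076 ± 0.41 SE, adjusted p = 0.935). Col17a1, also of hemidesmosomes and too low to be tested, was at 1 in DMSO replicate 1 and at 0 in the other libraries. Pkp1, Dsg1a, Dsg3, Dsc1 and Dsc3, the desmosome genes of stratified epithelia, were listed at 0 in all libraries. In BI-9564 all 13 were lower (45.9% of all genes were) and none was called without the block, where 0.0783% of genes were called lower. Under the block Macf1 and Dsp were called, where 1.04% of genes were called lower. In PFI-3 11 were lower (45.2% of all genes were) and none was called in either fit, as no gene was called lower.

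**Figure D5:**
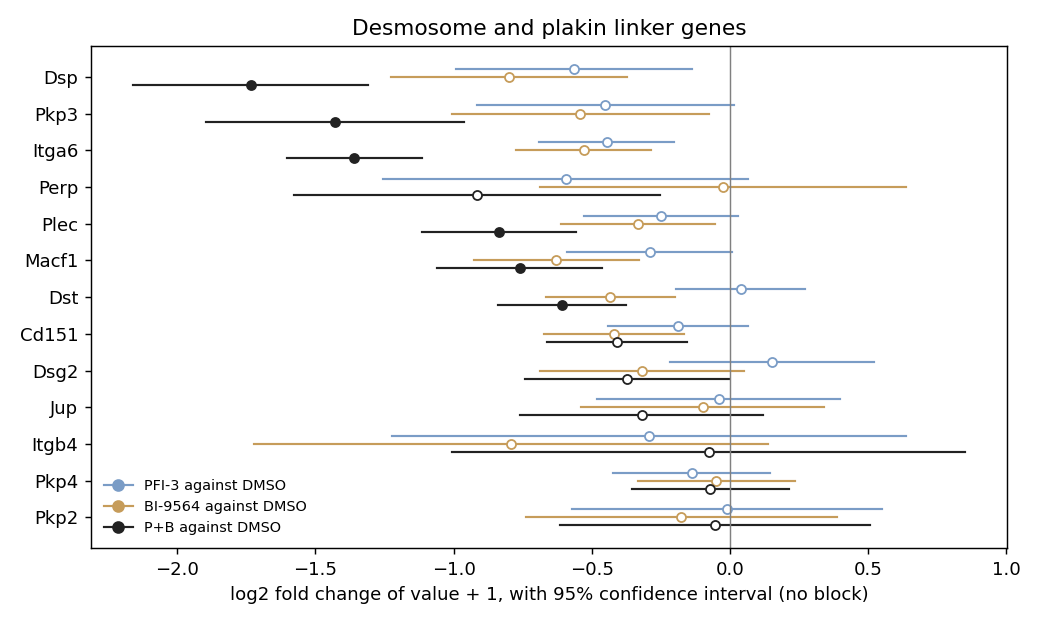
Log2 fold change of value + 1 with its 95% confidence interval (x axis) for the 13 tested desmosome and plakin linker genes (y axis) in each treatment against DMSO, from the fit without a block; filled points were called. The filled points are Dsp, Pkp3, Itga6, Plec, Macf1 and Dst in P+B, and Pkp2 and Pkp4 lie close to 0.

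The other intermediate filament genes did not share a direction. Of 15 genes, 9 had a mean of at least 5. Of these, 3 were lower and 6 higher in P+B than in DMSO, with a median of 0.115 against 0.063 for all genes. The 2 called lower, Lmna and Vim, compare with 2.72% of all genes. Lmna, the A-type lamin of the nuclear envelope, read 125 and 108 in DMSO, 90 and 88 in PFI-3, 79 and 50 in BI-9564, and 45 and 37 in P+B, and was called lower (−1.49 ± 0.20 SE, adjusted p = 0.00692). Vim, the mesenchymal filament protein vimentin, read 594 and 650 in DMSO, 448 and 565 in PFI-3, 468 and 556 in BI-9564, and 359 and 438 in P+B (−0.65 ± 0.14 SE, adjusted p = 0.0428). Vim was higher in replicate 2 of every group, the opposite of Krt8 and Krt18. The 6 that were higher in P+B, none of them called, were Ina, Nefl, Nefm, Nefh, Nes and Lmnb2, neuronal and progenitor filament genes and a B-type lamin.

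Markers of cell types in which keratins are abundant were read beside these results. The 10 trophectoderm markers summed to 95 to 110 in DMSO, 91 to 96 in PFI-3, 85 to 88 in BI-9564 and 57 to 87 in P+B, with Tead4 the largest single value in each library, and none was at 0 in every library. Tead4 was at 77 and 67 in DMSO and 45 and 22 in P+B (adjusted p = 0.0526, called under the block), whereas Cdx2, the defining factor, was at 1 and 0 in DMSO and 5 and 10 in P+B. Among 10 surface ectoderm and epidermis markers, 4 were at 0 throughout, Trp63 included, 3 (Krt5, Krt14 and Krt15) are keratins themselves, and the sum of 754 to 855 in DMSO and 246 to 350 in P+B was almost wholly Sfn. Sfn, the 14-3-3 sigma gene of epithelial cells, read 832 and 733 in DMSO, 727 and 596 in PFI-3, 597 and 457 in BI-9564, and 336 and 235 in P+B, and was called lower (−1.47 ± 0.19 SE, adjusted p = 0.00532).

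Of the 10 primitive endoderm markers 5 were at 0 in all libraries, and the list summed to 36 to 40 in DMSO, 22 to 23 in PFI-3, 28 to 31 in BI-9564 and 19 to 26 in P+B. Lrp2, a receptor also made by other epithelia, made up most of it, at 32 and 35 in DMSO and 13 and 16 in P+B, and was called lower. The 10 stem cell markers summed to 3742 to 4934 in DMSO and 3509 to 4463 in P+B, which overlap. In P+B 1 of the 10 was called, Tdgf1, lower at 82 and 84 against 163 and 156 in DMSO, where 2.72% of all genes were called lower. With the block Esrrb was also called, higher at 141 and 100 against 86 and 58 (0.74 ± 0.10 SE, adjusted p = 0.00486), where 299 of 10222 genes were called higher. In PFI-3 all 10 were higher than in DMSO, where 45.2% of all genes were lower. Their median change was 0.422 against 0.018 for all genes, and none was called. In BI-9564, 9 of the 10 were lower than in DMSO (45.9% of all genes were), with a median of −0.165 against 0.024. Only Tdgf1 was called, with the block (1.04% of genes were called lower). Against PFI-3 all 10 were lower in BI-9564 (48.7% of all genes were), with a median of −0.673 against 0.001. Tdgf1 was called there without the block (0.108% of genes were, in either direction). With the block 6 were: Klf4, Nanog, Esrrb, Tfcp2l1, Tdgf1 and Zfp42 (1.48% of genes). The part of any of these cell types in the keratin results was not tested.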

How the data were processed

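RNA-seq was done on 8 libraries, 2 in each of 4 groups taken from the sample titles. The authors deposited whole-number TPM values, which were treated as a score on the TPM scale because they are no longer exact; whether they were rounded or cut is not given in the sources used here. The submitters' processing notes name bcl2fastq, Bowtie2 2.2.5, RSEM 1.3.0 and mm10. All value columns were matched to samples and 0 were left out. TPM keeps no depth, so no counting interval can be given, and no count model was fitted.

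Values were taken as log2(value + 1), and rows averaging 5 or more across all libraries (10222 of 50600) were fitted with limma 3.58.1 in R 4.3.3, with a mean-variance trend, all 4 groups sharing the estimate of spread (4 residual degrees of freedom, 3 with the block). P-values are two-sided and Benjamini-Hochberg adjusted over all genes tested in each of 7 comparisons. A gene was called at an adjusted p under 0.05 and a change of at least 1.5-fold. An exact permutation test of 2 against 2 libraries cannot go below p = 0.333. The comparisons with DMSO share the DMSO libraries. The fit without the block was tried on simulated data with independent noise in each library and with changes placed only in genes of higher value. It did not cover the fit with the block or changes in genes of low value.

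Deviations from group means correlated between same-numbered libraries in all 6 pairs of groups (r from 0.143 to 0.236), so the replicate numbers were taken to pair the libraries. The pairing comes from the data, since the labels give only numbers. Libraries of a group correlated at 0.964 to 0.971.

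The keratins and the gene lists were chosen with earlier results of these data known. Genes were named by a rule: all 8 keratins, other keratins with a mean of at least 1, the called genes of the filament and linker lists or otherwise the 3 of largest change, the 5 genes most like Krt8 and Krt18, and Jun. Jup, Pkp2, Perp, Itgb4, Col17a1 and the markers were named outside this rule, after their values were seen. Alternatives covered the block, pseudocount, filter, scaling, trend, thresholds, the libraries fitted and leaving out each library. Promoters were taken from RefSeq (GRCm38.p6), and 31-base stretches were compared on both strands of GENCODE M21 transcripts. Figures were drawn with matplotlib 3.10.9.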

Additional observations from a re-analysis of the deposited data

How the results depend on the processing

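Keratins called lower in P+B against DMSO numbered 2, and 4 with the replicate block, 6 with the block and a mean of at least 1 (chosen after seeing the data), 1 at an adjusted p under 0.01, 0 with only the libraries compared, and from 0 to 3 when a library was left out (0 without DMSO replicate 1 or P+B replicate 2, 3 without P+B replicate 1). Against PFI-3 the count of 1 became 2 with the block and 0 with a mean of at least 1, no filter, no trend, an adjusted p under 0.01 or only the libraries compared, and was 0 to 0 when a library was left out. With the replicate block the count rose from 0 to 3 for BI-9564 against DMSO and from 0 to 2 for P+B against BI-9564, and it changed no other count of keratins. Krt19 in P+B against DMSO passed at a pseudocount of 5 (adjusted p = 0.0477), quantile normalization (0.0454), median centring (0.0416) and without P+B replicate 1 (0.0257), and Krt8 was lost without a filter (0.0711). Leaving out a library turned the direction of some uncalled log2 changes, and gave these ranges: Krt42 from −1.07 to 0.55 (PFI-3 against DMSO), −1.91 to 0.14 (P+B against DMSO), −1.65 to 0.40 (P+B against PFI-3), −0.92 to 1.13 (P+B against BI-9564), −1.65 to 0.19 (BI-9564 against PFI-3) and −0.66 to 1.39 (departure from the sum); Krt19 from −0.42 to 0.14 (BI-9564 against DMSO), −1.0 to 0.26 (P+B against PFI-3) and −0.86 to 0.40 (departure); Krt8 from −0.39 to 0.10 (BI-9564 against PFI-3); and Krt18 from −0.57 to 0.027 (departure). Over all genes, P+B against DMSO gave 409 calls, 278 of them lower. There were 718 with the block, 201 without a filter, 124 at an adjusted p under 0.01, 0 with only the libraries compared, and 68 to 268 when a library was left out. Median centring made 401 of 487 lower. The cause of these differences was not tested. With 2 libraries a group and whole-number values, differences in Krt17 and Krt80 rest on a few units.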
